A study of Mus musculus with 2 samples.

Results

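The clustered histone genes are the genes for the core histones H2A, H2B, H3 and H4 and the linker histone H1 that lie in a few dense clusters of the mouse genome. They were taken as every gene whose symbol in both count tables starts with Hist1h, Hist2h, Hist3h or Hist4h, which gave 65 of the 21018 genes that the tables share. Of these, 53 carry a Hist1h symbol and lie on chromosome 13, 9 carry Hist2h (chromosome 3), 2 carry Hist3h (chromosome 11) and 1 is Hist4h4 (chromosome 6). By class there are 6 H1, 17 H2A, 17 H2B, 12 H3 and 13 H4 genes.

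Ovaries of C57BL pups at postnatal day 3 were profiled by the 10x 3′ single-cell assay in 2 libraries, 1 per group. In both groups the mother was given melatonin (MLT) from E16.5 of gestation until the day of collection. In the DEHP_MLT group she was gavaged with DEHP, a phthalate plasticizer, earlier on each day, and in the MLT group with DMSO in its place. The number of pups pooled for a library is not known here, and a group without MLT is not analysed here. Titles and table names disagree: the MLT title goes with a DEHP_MLT table, and the other way round. The titles were followed, so "labelled MLT" and "labelled DEHP_MLT" mean the titles, and if the table names are the correct ones, every direction between the libraries turns round. With 1 library per group there is no replicate check, no test was made, and every interval covers counting error only.

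Replication-dependent histone genes are transcribed in S phase, when new DNA has to be packed into nucleosomes. Their mRNAs are unusual in ending at a conserved stem-loop bound by SLBP instead of in a poly(A) tail. A minority of the clustered genes can also make a longer, polyadenylated mRNA, which some cells use outside S phase. The assay read here primes cDNA on A-rich RNA, so it sees polyadenylated histone mRNA and whatever else offers a stretch of A. In the ovary of this age oocytes are arrested in meiotic prophase, while stromal and part of the pregranulosa cells divide.

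The 3′ ends of the members are shown first, because they set what a poly(A)-primed assay can read. All 65 genes matched a GENCODE vM21 transcript (GRCm38), and the longest transcript of each was searched. The histone stem-loop consensus was found in 42 of them, against 0.236% of 58797 protein-coding transcripts. The letters AATAAA or ATTAAA, the common poly(A) signals, lay within the last 50 bases of 16 members, against 50.69% of all protein-coding transcripts. There were 12 members with both elements and 19 with neither. Some of the latter have short annotated models, such as Hist1h4k at 312 bases and Hist1h2bl at 381, about the length of the coding sequence. Where a model stops there, neither element could be found, so its absence describes the annotation only. Capitals mark the stem-loop in these sites, written 5′ to 3′.
Hist1h2ap: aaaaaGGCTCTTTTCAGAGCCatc
Hist1h2ae: acaaaGGCTCTTTTCAGAGCCattca
Hist1h1e: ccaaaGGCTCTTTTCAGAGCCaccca
Hist1h3c: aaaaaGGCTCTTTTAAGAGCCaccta
Hist1h4i: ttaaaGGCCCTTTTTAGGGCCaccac
The annotated transcript of Hist1h2ap, the most abundant member, ended 3 bases past its stem-loop, while that of Hist1h1e, an H1 gene, went on for 1153 bases. Capitals mark the poly(A) signal in the ends of members that hold one in their last 50 bases.
Hist1h1c: gtgtatgcttctAATAAAaagcgtttagtt
Hist3h2a: aggtatatgcccAATAAAataagagtacgt
Hist3h2ba: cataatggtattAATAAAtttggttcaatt
Hist1h4i: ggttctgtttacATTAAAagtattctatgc
Hist4h4: agaagatgctagaggagatgaAATAAAtac
Hist1h4i held both a stem-loop and, 330 bases further on, the end of a longer transcript with a poly(A) signal. In Hist1h2ap and its near-copy Hist1h2ao a run of 12 A, in capitals here, stood directly before the stem-loop.
Hist1h2ap, run of A: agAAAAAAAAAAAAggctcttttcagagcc
Hist1h2ao, run of A: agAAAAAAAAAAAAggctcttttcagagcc
A run of at least 12 A was present in 3 of the 65 members, the other being Hist1h2ac, and in 5.31% of protein-coding transcripts. Whether this run was primed was not tested.

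Several members cannot be told apart well by short reads. In the last 400 bases, 42 of the 65 held at least 1 stretch of 50 bases that is also in another member. For Hist1h2ap every such stretch was shared with at least 1 of 16 other H2A members, and for Hist1h2ao 92.02% were. In the stroma cells described below Hist1h2ap had 15005 and 25389 UMIs in the 2 libraries and Hist1h2ao 0 and 5, so levels of single members of the H2A, H2B, H3 and H4 classes depend on how the authors' counting assigned such reads. No such stretch in the last 400 bases of Hist1h1b, Hist1h1c, Hist1h4d, Hist1h4i or Hist3h2a lay in another member.

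The promoters of 60 members were matched in RefSeq (GRCm38.p6), from 250 bases before to 50 bases after the start. Both strands were searched for 3 motifs. The first was TATAAA, where the general transcription machinery can assemble. The next was CCAAT, bound by the NF-Y complex, and the last was the octamer ATTTGCAT, bound by POU2F1. TATAAA was present in 58.33% of the 60 and in 13.62% of all 32851 promoters. CCAAT was present in 85.0% against 37.41%, and this split by class: every matched H1, H2A, H2B and H3 promoter had it, and 3 of 12 H4 promoters did. ATTTGCAT was present in 21.67% against 1.74%, in 7 of 17 H2A and 6 of 15 H2B promoters and in 0 of the others. Windows of neighbouring genes may overlap, and a site in an overlap is counted for each of them. How often this happened was not tested. The 250 bases before the start are shown for 3 members that differ in the results below, with the letters found in capitals.
Hist1h2ap, chr13:21833476-21833725, minus strand: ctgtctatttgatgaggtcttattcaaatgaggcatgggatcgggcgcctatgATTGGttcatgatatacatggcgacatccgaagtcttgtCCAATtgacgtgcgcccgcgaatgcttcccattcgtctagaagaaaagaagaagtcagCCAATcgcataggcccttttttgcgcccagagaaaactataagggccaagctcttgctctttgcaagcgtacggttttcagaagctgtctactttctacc
Hist1h2ae, chr13:23571221-23571470, minus strand: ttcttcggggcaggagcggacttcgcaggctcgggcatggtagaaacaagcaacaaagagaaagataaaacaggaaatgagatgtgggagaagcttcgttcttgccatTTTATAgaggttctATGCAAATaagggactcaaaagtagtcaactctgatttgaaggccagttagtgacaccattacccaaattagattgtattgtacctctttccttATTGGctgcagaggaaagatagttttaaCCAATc
Hist1h4d, chr13:23581318-23581567, plus strand: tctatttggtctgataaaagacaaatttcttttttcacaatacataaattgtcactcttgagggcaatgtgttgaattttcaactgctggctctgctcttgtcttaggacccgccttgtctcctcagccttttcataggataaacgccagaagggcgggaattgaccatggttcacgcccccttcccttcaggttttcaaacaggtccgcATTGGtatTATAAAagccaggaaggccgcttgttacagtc
Hist1h2ap had 3 CCAAT boxes and no TATAAA, and Hist1h4d had 1 CCAAT box and TATAAA. Hist1h2ae had 2 CCAAT boxes, and its TATAAA and octamer were both read on the opposite strand. A match describes these letters only, and whether it serves the named gene or a neighbour was not tested.

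Cells were gated by markers. A germ cell had at least 2 of Dazl, Sycp3 and Figla, a granulosa cell at least 2 of Fst, Hsd3b1, Inha and Aard, and a stroma cell at least 2 of Col1a1, Col1a2, Col3a1 and Dcn, each with a minimum summed level of 6, 6 and 24 UMIs per 10000 UMIs of the cell. Cells past more than 1 gate were left out (188 of 5199 cells labelled MLT and 46 of 4819 labelled DEHP_MLT). The gates held 271 germ, 676 granulosa and 2965 stroma cells in the former and 754, 356 and 2294 in the latter. Markers not used for the gates were highest in the gate they belong to: Ddx4, Gdf9 and Sohlh1 summed to 8.04 and 7.13 UMIs per 10000 in germ cells of the 2 libraries, and in stroma to 6.37% and 5.83% of that. Foxl2, a granulosa regulator, was at 35.55% and 30.02% of its granulosa level in stroma, and Acta2, a smooth muscle and perivascular marker, was at 6.64 and 5.45 UMIs per 10000 there, so that gate also holds RNA known from other cells. Haemoglobin and other erythroid markers (4 genes) summed to between 3.28 and 11.3 UMIs per 10000 in the gates of the library labelled MLT and to between 62.0 and 137 in the other, and all 4 markers were detected in every gate. Endothelial markers summed to at most 0.461 and immune markers to at most 0.185 in any gate. At least 2 endothelial markers were seen in 24.35% and 21.22% of germ, 16.27% and 16.85% of granulosa and 5.26% and 3.92% of stroma cells. At least 2 surface epithelium markers were seen in 22.51% and 44.03% of germ cells. The part of such RNA in the results was not measured, and values without cells that bear endothelial, immune or erythroid markers are given in the last section. The libraries also differed in depth, with a median of 10834 and 13161 UMIs and a lowest total of 2031 and 6923 UMIs per barcode, and they shared 4 barcodes. Levels below are UMIs per 10000 UMIs of the pooled cells. A UMI counts 1 molecule from its 3′ end and needs no correction for length. A cell with at least 1 UMI of Mki67 or Top2a is called cycling, and this state depends on depth.

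Clustered histone RNA was concentrated in cycling stroma. In the library labelled MLT the summed level of the 65 genes was 35.09 (95% Poisson interval 34.79 to 35.38) in 1221 cycling stroma cells and 3.98 (3.89 to 4.08) in 1744 non-cycling ones. The library labelled DEHP_MLT had 29.20 (28.93 to 29.48) in 877 cells and 3.75 (3.65 to 3.84) in 1417. On the log2 scale the cycling level was higher by 3.14 and by 2.96. Cycling granulosa cells were much less apart from non-cycling ones, at 7.18 against 5.14 in the library labelled MLT (log2 0.482) and 7.65 against 4.61 in the other (log2 0.73). In germ cells the levels were 6.02 against 5.65 (log2 0.093) and 7.45 against 5.38 (log2 0.468).

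**Figure D1:**
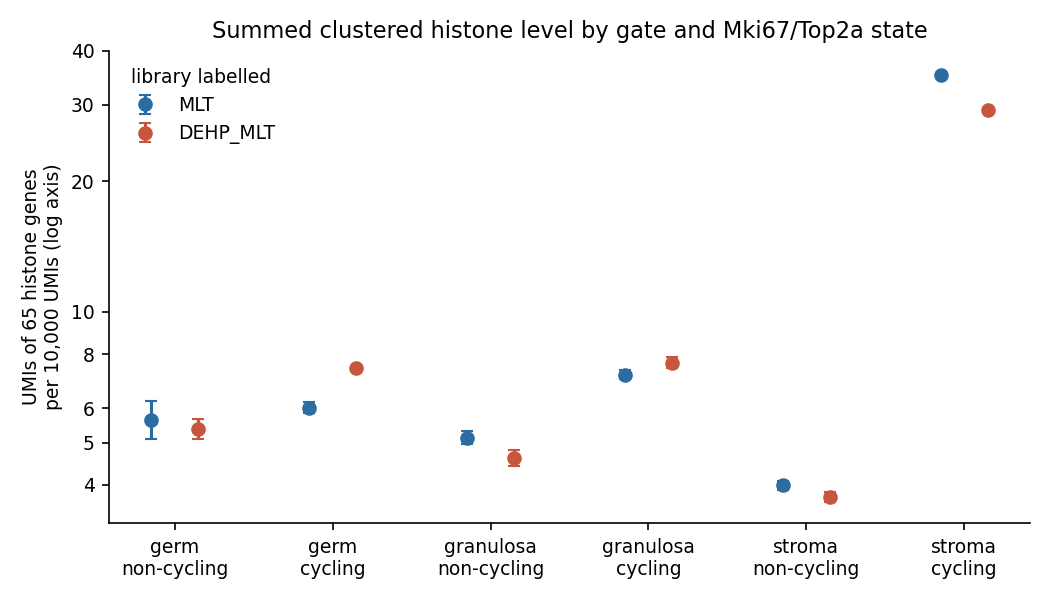
The summed level of the 65 clustered histone genes (UMIs per 10000 UMIs, log axis) is plotted for non-cycling and cycling cells of each gate, with 1 point per library and bars for the 95% Poisson interval. Cycling stroma sits at 35.09 and 29.20, and the other 10 points lie between 3.75 and 7.65.

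Among non-cycling cells the order was germ, granulosa, stroma in both libraries with all members summed. Without Hist1h2ap granulosa stood above germ cells, at 4.75 against 4.40 in the library labelled MLT and 3.69 against 3.35 in the other. Without cells bearing endothelial, immune or erythroid markers granulosa also came first in the library labelled MLT, at log2 0.56 over stroma against 0.523 for germ cells. The non-cycling germ level of 5.65 (5.10 to 6.23) and granulosa level of 5.14 (4.96 to 5.32) had overlapping intervals in the library labelled MLT, whereas 5.38 (5.10 to 5.68) and 4.61 (4.41 to 4.82) in the other did not. Germ cells were above stroma by log2 0.504 and 0.523, and granulosa cells by 0.367 and 0.30. The summed level of Mki67 and Top2a in cycling cells was 11.4 and 8.01 in stroma, 1.36 and 0.952 in granulosa, and 1.14 and 0.773 in germ cells, whose cycling cells were also the deepest, with a median of 55703 and 69137 UMIs against 3428 and 14623 in non-cycling germ cells. When every cell was thinned to 2000 UMIs, the share of germ cells with a Mki67 or Top2a UMI went from 57.2% (51.1 to 63.2, Clopper-Pearson) to 19.9% (15.3 to 25.2) in the library labelled MLT and from 83.7% (80.9 to 86.3) to 12.7% (10.4 to 15.3) in the other.

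The cycling stroma level came from a minority of its cells. The cells' own levels had a lower quartile of 3.07, a median of 5.48, an upper quartile of 15.26 and a highest value of 219.4 in the library labelled MLT. The same 4 values were 3.01, 6.02, 42.43 and 225.6 in the library labelled DEHP_MLT. Of cycling stroma cells 22.52% and 30.33% reached a level of 20, against 0.287% and 0.212% of non-cycling ones. The median UMIs of the cycling cells were 11807 and 14509, and no order of the libraries is read from these shares. The tenth of cycling stroma cells with the most histone UMIs held 58.08% and 46.35% of all of them. At 2000 UMIs per cell, at least 1 histone UMI was seen in 59.2% of stroma cells (57.4 to 61.0) and 57.1% (55.0 to 59.1), in 65.5% (61.8 to 69.1) and 59.0% (53.7 to 64.1) of granulosa cells, and in 64.6% (58.6 to 70.3) and 71.8% (68.4 to 74.9) of germ cells.

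In cycling stroma the pooled level was highest in the group of cells high in both replication and mitosis genes. Stroma cells were put into 4 equal groups, from low to high, by the summed level of 40 DNA replication genes (the MCM helicase genes, Pcna, Rrm2, Tyms and others), a split chosen after the values were seen. The histone level over these groups was 4.62, 4.21, 6.20 and 50.17 in the library labelled MLT and 4.96, 4.63, 6.63 and 38.34 in the other. In granulosa cells the top group stood at 11.20 and 11.78, above 4.75 to 5.37 and 4.32 to 5.05 in the groups below it. In germ cells the level had no such step, and the top group (5.42 and 6.75) was not the highest of the 4 although the replication genes themselves summed to 42.04 and 33.94 there. Cycling stroma was also split at the median of the replication genes and at the median of Ccnb1, Cdc20, Plk1, Aurka and Cenpf, which serve in mitosis. Cells above both medians had a histone level of 84.17 (83.41 to 84.93) and 66.72 (66.02 to 67.43). Cells above the replication median only had 10.02 and 11.14, cells above the mitosis median only had 8.04 and 13.20, and cells below both had 3.96 and 4.33.

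**Figure D2:**
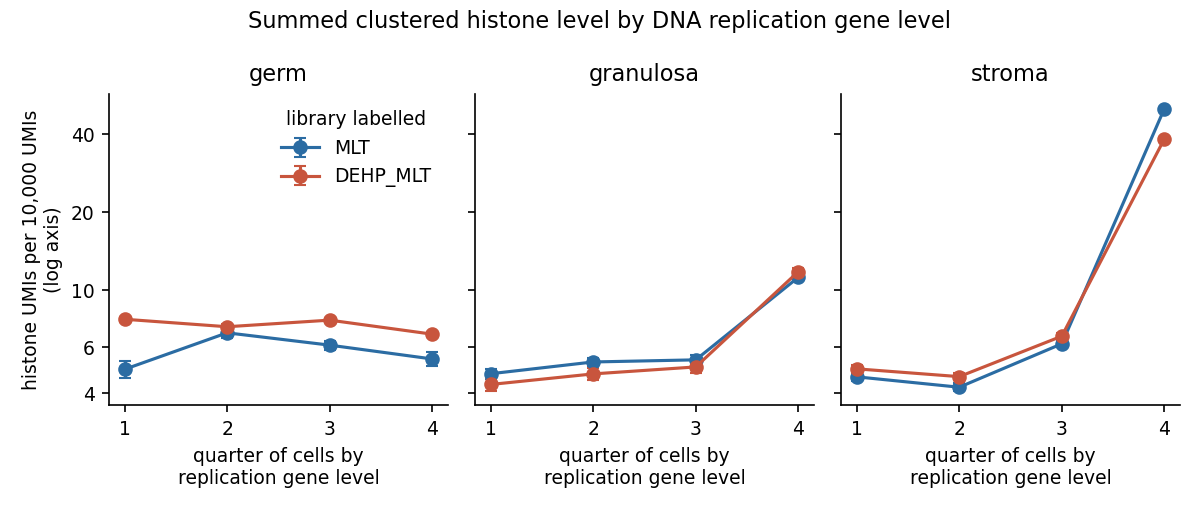
The summed clustered histone level (UMIs per 10000 UMIs, log axis) is plotted against 4 equal groups of cells ordered by DNA replication gene level in each gate, 1 line per library with 95% Poisson intervals. In stroma the level lies between 4.21 and 6.63 in groups 1 to 3 and reaches 50.17 and 38.34 in group 4, while germ cells stay between 4.94 and 7.71.

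Gene by gene, nearly the whole family followed this pattern in stroma. A gene was called when it had at least 10 UMIs over both sides, a ratio of at least 1.5 and 95% Poisson intervals that did not overlap. In the library labelled MLT 54 of 62 members with enough UMIs were called higher in cycling stroma and 0 lower, where 5.26% of all 15763 genes were called higher and 0.869% lower. The library labelled DEHP_MLT had 51 of 61 higher and 0 lower, against 5.9% and 0.876% of 15297 genes. The median log2 ratio of these members was 2.81 and 2.10, and that of all genes −0.01 and 0.01. There were 49 members called higher in both libraries.

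Among H2A genes, Hist1h2ap was at 9.38 in cycling and 0.368 in non-cycling stroma of the library labelled MLT, a ratio of 25.5, and at 16.56 and 0.651 in the other, a ratio of 25.4. The levels differed between the libraries and the ratios nearly coincided. Hist1h2ae, also an H2A gene, was at 3.78 and 0.203 (18.6 times) and at 2.09 and 0.183 (11.4 times). The highest ratios of the H2A class were those of Hist1h2af, at 36.3 and 45.2 from 11 and 3 non-cycling UMIs, so they are poorly fixed. Hist1h2an was 33.7 and 13.1 times higher, and Hist1h2ab 22.4 and 18.5 times.

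The H1 linker histones, which bind the DNA between nucleosomes, split by member. Hist1h1b was at 5.32 in cycling and 0.327 in non-cycling stroma (16.3 times), and at 1.68 and 0.158 (10.6 times) in the library labelled DEHP_MLT. Hist1h1a was 18.3 and 10.8 times higher and Hist1h1d 8.03 and 4.16 times. Hist1h1e was 5.28 and 3.69 times higher. Hist1h1c, which has a poly(A) signal, was at 1.06 and 0.367 (2.88 times) and at 0.786 and 0.421 (1.87 times), the lowest ratios of the 5 H1 genes expressed here.

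Among the genes for H3 and H4, which form the core of the nucleosome, Hist1h3b was 29.4 and 39.9 times higher in cycling stroma, from 15 and 7 non-cycling UMIs. Hist1h3c was at 1.06 and 0.0436 (24.3 times) and at 0.379 and 0.0209 (18.1 times), and Hist1h3g was 8.41 and 15.5 times higher, from 5 non-cycling UMIs in each library. Hist1h4d, the H4 gene with the highest level in stroma labelled MLT, was at 1.83 and 0.386 (4.74 times) and at 0.346 and 0.108 (3.21 times). Hist1h4i was 3.94 and 4.53 times higher. Of the H2B genes Hist1h2bm, chosen after its values were seen, was 18.4 and 5.80 times higher.

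The members outside the pattern included the Hist3h and Hist4h genes. Of the 16 members not called higher in both libraries, Hist3h2a, an H2A gene, was at 0.205 in cycling and 0.29 in non-cycling stroma of the library labelled MLT and at 0.331 and 0.334 in the other. Hist4h4 was at 0.0574 and 0.0566 and at 0.094 and 0.106. Hist3h2ba, an H2B gene, was at 0.0163 and 0.0177 in the library labelled MLT, and was 2.57 times higher in cycling stroma of the other (0.092 against 0.0359). Hist2h4 was called in the library labelled DEHP_MLT only, and Hist1h1t, Hist1h4j, Hist1h4k, Hist1h4m and Hist1h4n in the library labelled MLT only. Hist2h3c1, Hist2h3c2, Hist1h3h, Hist1h2ao, Hist1h2ah, Hist1h2ba and Hist1h2aa were called in neither. Whether the libraries differ in these genes was not tested.

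By 3′ end, the 16 members with a poly(A) signal in the last 50 bases had a median log2 ratio of 1.96 and 1.47 in stroma, with 11 of 16 called higher in each library. The members without it had medians of 3.04 and 2.38, with 43 of 46 and 40 of 45 called. Of all genes 5.26% and 5.9% were called higher in cycling stroma, which is also the background for the listed genes below. The groups overlapped widely, from −0.50 to 4.22 in the former and from −1.27 to 5.18 in the latter in the library labelled MLT. The group without the signal also holds short annotated models such as Hist1h2bl, where none could be found. It includes Hist1h2bc and Hist1h2bg, which are on the list of the next sentence, so the split is one of annotated letters only. Of 10 genes listed as known to make polyadenylated mRNA, 9 were in both tables, 6 and 7 of them were called higher, and their median was 1.73 and 1.09. Hist1h2bc, a widely expressed H2B gene, was 1.75 and 1.53 times higher, Hist2h2be 3.81 and 2.13 times, Hist1h2be 5.86 and 2.47 times, and Hist1h2bg 4.38 and 2.68 times. The tenth gene of that list, Hist1h2bd, was not among the genes of both tables.

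**Figure D3:**
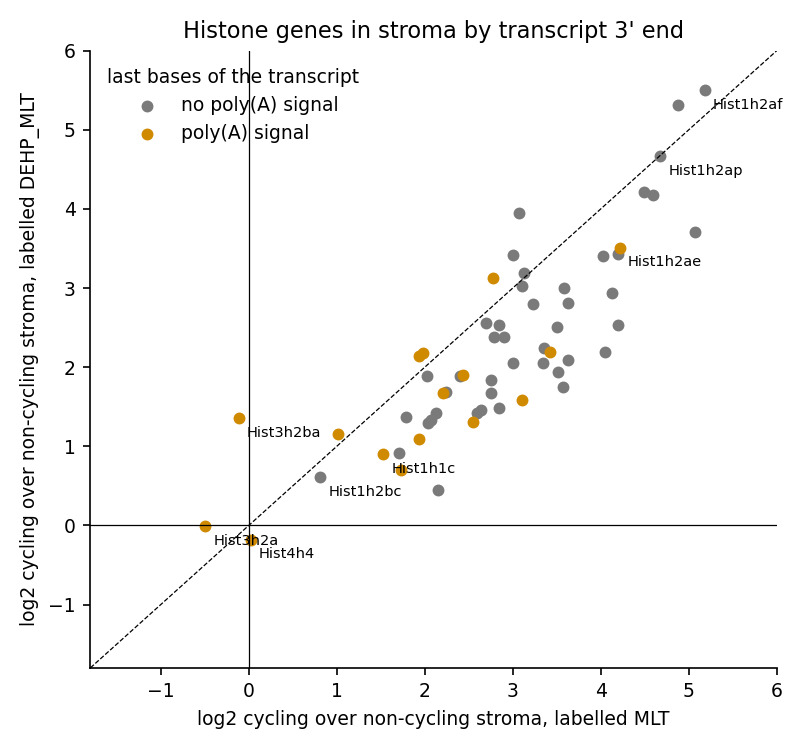
Each of 60 points is 1 histone gene with enough UMIs in stroma of both libraries. The axes are its log2 ratio of cycling over non-cycling stroma, MLT label on x and DEHP_MLT label on y. Colour marks a poly(A) signal in the last 50 bases of the annotated transcript, and the dashed line is equality. Hist3h2a and Hist4h4 sit near 0 on both axes and Hist1h2ap lies on the line near 4.67.

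In granulosa cells a short list of members moved with the cycling state. In the library labelled MLT 10 of 52 were called higher and 0 lower, against 1.63% and 0.531% of 14874 genes, and in the library labelled DEHP_MLT 8 of 50 and 0, against 2.43% and 0.9% of 13996. Hist1h2ap, Hist1h4i, Hist1h2bj, Hist1h3c and Hist1h2ab were called in both. Hist1h2ap was at 1.27 in cycling and 0.388 in non-cycling granulosa cells (3.26 times), and at 2.92 and 0.92 (3.18 times) in the other library. Hist1h3c was 3.32 and 3.68 times higher and Hist1h2bj, an H2B gene, 2.15 and 3.25 times. Of the members with a poly(A) signal 2 of 14 were called higher in each library, Hist1h4i among them. Among members that were not called, Hist3h2a was at 0.338 and 0.37 and at 0.418 and 0.458, Hist1h1c at 0.453 and 0.464 and at 0.459 and 0.423, and Hist1h2bc at 0.47 and 0.396 and at 0.512 and 0.464. At a minimum of 50 UMIs the count in the library labelled DEHP_MLT was 5, and the share of all genes at that minimum is not given here.

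Few members were called by state in germ cells, although the summed level differed by log2 0.468 in the library labelled DEHP_MLT. In the library labelled MLT 0 of 42 members were called higher and 1 lower, against 2.77% and 5.94% of 13711 genes, and in the library labelled DEHP_MLT 3 of 62 and 0, against 2.74% and 1.68% of 16601, which is near the background. The lower gene was Hist1h2bc, at 0.301 in cycling and 0.515 in non-cycling germ cells of the library labelled MLT, where the latter rests on 36 UMIs. The higher ones were Hist1h2ap (3.78 against 2.04), Hist2h2aa1 (0.168 against 0.106) and Hist1h2ac (0.0443 against 0.0123, the latter from 3 UMIs).

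Across gates the members differed in where they were expressed. Hist1h1b was at 2.70 in all stroma cells, 0.769 in granulosa and 0.0979 in germ cells of the library labelled MLT, and at 0.871, 0.266 and 0.0663 in the other. The germ level was 3.63% and 7.61% of the stroma level, while Lum, Pdgfra and Postn, stroma genes not used for the gates, summed in germ cells to 3.41% and 3.33% of their stroma level. Removing cells past both gates limits that share too. Hist1h1a, another linker histone, was at 0.209 and 0.15 in germ cells, at 0.0509 and 0.0333 in granulosa cells and at 0.358 and 0.186 in stroma. Hist3h2ba was lowest in stroma (0.017 and 0.0621) and at 0.169 and 0.192 in granulosa and 0.0906 and 0.125 in germ cells. Hist2h2be was at 0.0686 and 0.0793 in granulosa cells, at 0.0124 and 0.021 in stroma and at 0.0073 and 0.0151 in germ cells.

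Of the 3 genes listed as germ-line members, 2 were found mainly in germ cells. Hist1h2aa, an H2A variant known from the testis, was at 0.0823 in germ cells of the library labelled MLT (79 UMIs), 0.0018 in granulosa (3 UMIs) and 0.0034 in stroma (11 UMIs). In the other library it was at 0.0346 (160 UMIs), 0.0009 (1 UMI) and 0.001 (3 UMIs). Hist1h2ba, an H2B variant of the testis, was at 0.0135 (13 UMIs) and 0.0173 (80 UMIs) in germ cells, and its UMIs were 1 and 2 in granulosa cells and 0 and 2 in stroma. These are low levels beside the family's sum of 5.996 and 7.34 in germ cells. Hist1h1t, the testis linker histone, did not follow them: it had 3 and 30 UMIs in germ cells, 2 and 0 in granulosa cells and 29 and 10 in stroma. All 29 stroma UMIs of the library labelled MLT were in cycling cells, which made the cycling level at least 10.7-fold higher against a floor of 3 counts over the group.

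The libraries differed in the level and in the make-up of the histone RNA. The summed level over all cells of a gate was 5.996 (5.84 to 6.15) in germ cells labelled MLT and 7.34 (7.26 to 7.42) in those labelled DEHP_MLT, 6.37 (6.25 to 6.49) and 6.47 (6.32 to 6.62) in granulosa, and 18.75 (18.60 to 18.90) and 15.64 (15.50 to 15.78) in stroma. The log2 differences were 0.291, 0.0227 and −0.261. Without Hist1h2ap they were −0.258, −0.334 and −0.90, so the sum of the other members was lower in the library labelled DEHP_MLT in each gate. In stroma this sum was at 25.7 and 12.64 in cycling cells but at 3.62 and 3.09 in non-cycling ones, labelled MLT first. In non-cycling stroma H2B and H3 were higher in the library labelled DEHP_MLT, by log2 0.24 and 0.06. There H1 and H4 were lower, at log2 −0.33 and −0.73. In an alternative chosen after the data were seen, cells with a UMI of an MHC class II gene were left out, which kept 808 of 2965 stroma cells labelled MLT and 2220 of 2294 labelled DEHP_MLT. The stroma difference in the sum of all members was then 0.067 and the granulosa one −0.0262.

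Hist1h2ap alone made up 27.18% (26.04 to 28.35) of the histone UMIs of germ cells labelled MLT and 50.23% (49.70 to 50.76) of those labelled DEHP_MLT. In granulosa it was 14.42% (13.75 to 15.11) and 33.15% (32.06 to 34.25), and in stroma 24.79% (24.44 to 25.13) and 51.69% (51.25 to 52.13). The share was thus higher in the library labelled DEHP_MLT in every gate, and also in non-cycling cells, where it was 22.03% and 37.79% in germ, 7.56% and 19.95% in granulosa and 9.24% and 17.38% in stroma. The H1 share went from 18.46% to 12.55% in germ, from 29.43% to 17.92% in granulosa and from 30.60% to 17.36% in stroma. Shares are parts of a whole, so a larger Hist1h2ap share leaves less for the other members. The shares of the other H2A, the H3 and the H4 genes were lower in every gate too, while that of H2B was higher in granulosa (15.25% and 16.28%). In levels, H1 differed by log2 −0.27 in germ, −0.69 in granulosa and −1.08 in stroma.

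**Figure D4:**
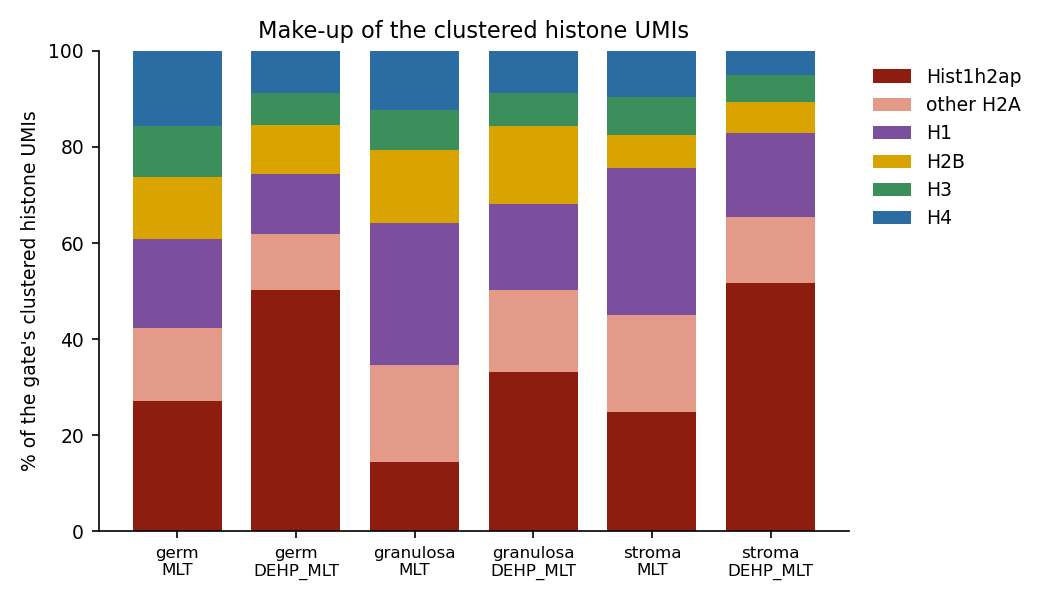
Stacked bars give the share of each gate's clustered histone UMIs (percent) that fell on Hist1h2ap, on the other H2A genes and on the H1, H2B, H3 and H4 genes, with 1 bar per gate and library. The Hist1h2ap part goes from 27.18% to 50.23% in germ, from 14.42% to 33.15% in granulosa and from 24.79% to 51.69% in stroma between the library labelled MLT and the one labelled DEHP_MLT.

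In levels, Hist1h2ap was at 1.63 and 3.69 in germ cells (2.26 times), 0.918 and 2.14 in granulosa (2.34 times) and 4.65 and 8.08 in stroma (1.74 times), labelled MLT first. Hist1h4i was also higher in all 3 gates of the library labelled DEHP_MLT, by 1.54, 1.82 and 1.52 times, at 0.185 and 0.286, 0.121 and 0.22, and 0.169 and 0.257. The members lower in all 3 gates were Hist1h4d, Hist2h2ac and Hist1h2ab. Hist1h4d was at 0.448 and 0.101 in germ cells, 0.367 and 0.0919 in granulosa and 1.07 and 0.219 in stroma, a difference of 4.43, 3.995 and 4.89 times. Hist2h2ac was 2.32, 2.79 and 2.80 times lower and Hist1h2ab 1.81, 1.75 and 2.46 times. No member was called in opposite directions in different gates. How often all genes were called alike or oppositely over the gates is not given here, so these counts are not read as a trait of the family.

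Read against all genes, the lower calls in stroma stand out in number. In stroma 6 of 63 members were called higher and 25 lower in the library labelled DEHP_MLT, against 2.23% and 11.1% of 16829 genes. In granulosa it was 4 of 59 and 6, against 1.98% and 7.55% of 15862, and in germ cells 4 of 63 and 8, against 2.17% and 5.86% of 17021. The median log2 ratio of the members was −0.53 in stroma, −0.09 in granulosa and 0.10 in germ cells, and that of all genes −0.18, −0.13 and −0.10. The latter median shifts the scale by 0.177 in stroma, 0.132 in granulosa and 0.099 in germ cells. Scaled by the median ratio of all genes, stroma had 10 higher and 21 lower members and granulosa 6 and 5, and scaled without mitochondrial, ribosomal protein and haemoglobin genes 9 and 22, and 6 and 4. The share of all genes called under these 2 scalings is not given here, so the rescaled counts have no background beside them.

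In stroma 4 of the 6 linker histones were called lower, Hist1h1t among them from 29 and 10 UMIs. Hist1h1b was at 2.70 and 0.871 (3.10 times lower in the library labelled DEHP_MLT), Hist1h1e at 1.62 and 0.739 (2.20 times) and Hist1h1a at 0.358 and 0.186 (1.93 times), while Hist1h1c, at 0.694 and 0.592, and Hist1h1d, at 0.355 and 0.324, were not called. Hist1h1b was also lower in granulosa, at 0.769 and 0.266 (2.89 times). Of the H4 genes Hist1h4c was 3.35 times lower, Hist1h4h 3.12 times and Hist1h4k, from 45 and 12 UMIs, 3.65 times. Hist1h2ae was 1.77 times lower and Hist1h2an 3.27 times. Higher in stroma besides Hist1h2ap and Hist1h4i were Hist3h2ba, at 0.017 and 0.0621 (3.65 times), Hist4h4, at 0.057 and 0.101 (1.77 times), Hist1h4f (15 and 38 UMIs) and Hist1h3g (43 and 73 UMIs). Of the 16 members with a poly(A) signal in the last 50 bases 3 were called higher (Hist3h2ba, Hist4h4 and Hist1h4i) and 5 lower, with a median log2 ratio of −0.22. Of all genes 2.23% were called higher and 11.1% lower in stroma, which is the background for the counts of this paragraph.

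In germ cells the lowest ratios were those of Hist1h4d, Hist2h2bb (0.0781 and 0.022), Hist1h4c (0.1 and 0.0376), Hist1h3c (0.271 and 0.106) and Hist1h2aa (0.0823 and 0.0346). Hist2h2aa1 and Hist1h3a were called higher there, at 0.0854 and 0.165 and at 0.0625 and 0.101. In granulosa Hist2h3b (5 and 17 UMIs) and Hist1h4m (1 and 9 UMIs, log2 3.73 with a counting interval from 0.87 to 9.18) were called higher from few counts, and Hist1h4h and Hist1h3e were 1.73 and 1.59 times lower. By class, H4 fell behind in all 3 gates, with log2 differences of −0.55 in germ, −0.48 in granulosa and −1.16 in stroma, and H2A was above 0 in all of them (0.84, 0.56 and 0.28). The H2A values rest on Hist1h2ap: the other 16 H2A genes summed to 0.906 and 0.855 in germ cells, 1.29 and 1.10 in granulosa and 3.78 and 2.16 in stroma. Their log2 differences were −0.08, −0.23 and −0.81, of which the germ value turned to 0.015 under the median ratio scaling.

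**Figure D5:**
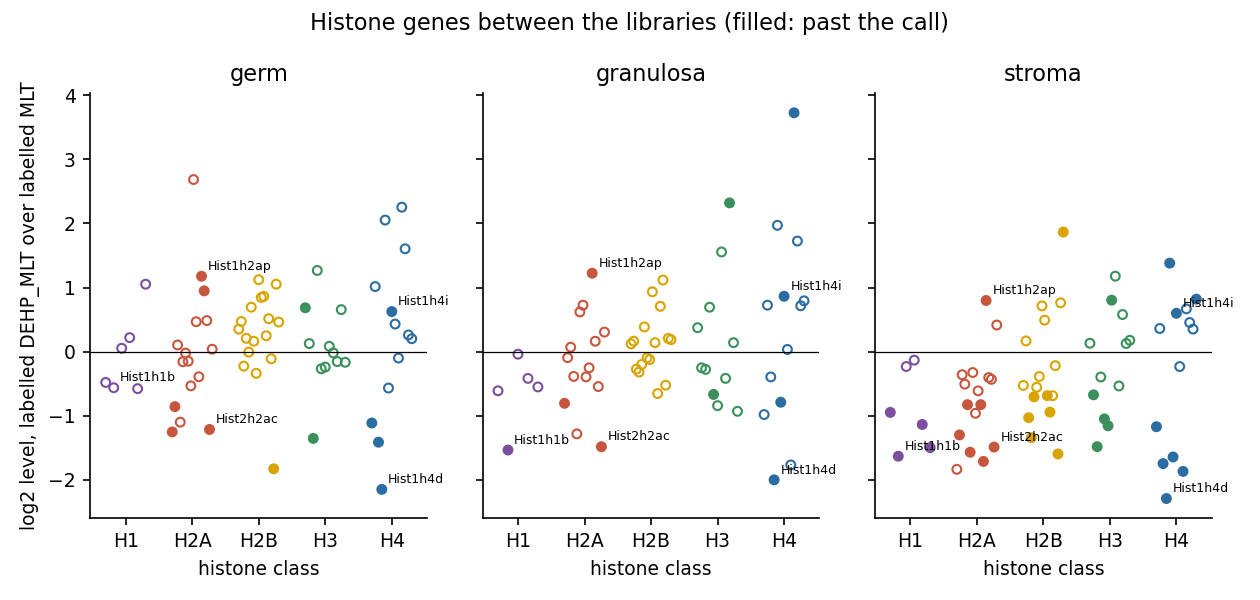
Each point is 1 histone gene with at least 10 UMIs in that gate, placed by its class (x axis) and its log2 level ratio of the library labelled DEHP_MLT over the library labelled MLT (y axis); filled points were called, and a gene with 0 UMIs in 1 library is drawn at the ratio to a floor of 3 counts. Hist1h2ap lies at 1.18, 1.22 and 0.80 and Hist1h4d at −2.15, −1.998 and −2.29 in germ, granulosa and stroma.

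Genes of histone biology outside the clusters were followed in the same cells. Of the replacement histones, which can be made outside S phase, 13 of 16 listed were in both tables. In each library 6 of the 12 with enough UMIs were called higher in cycling stroma, against 5.26% and 5.9% of all genes. Cenpa, the centromeric H3, was at 1.63 in cycling and 0.128 in non-cycling stroma labelled MLT and at 1.97 and 0.133 in the other, H2afx at 3.18 and 0.46 and at 4.24 and 0.653, and H2afz at 14.36 and 4.203 and at 15.33 and 4.45. H3f3a was not called, at 15.61 and 14.06 and at 16.47 and 14.71. Between the libraries 0 of 12 were called higher in stroma and 1 lower (H1foo, the oocyte linker histone, at 0.0734 and 0.0465), where 2.23% of all genes were called higher and 11.1% lower.

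Of 25 genes for histone mRNA transcription and processing in both tables, 6 were called higher in cycling stroma in each library. Of all genes 5.26% and 5.9% were called higher there, which is also the background for the other counts in cycling stroma below. Slbp, the stem-loop binding protein, was higher by log2 1.12 and 0.90, Ccne1 was at 0.234 and 0.0513 and at 0.237 and 0.0705, and Ccne2, the second cyclin E, at 0.29 and 0.0425 and at 0.145 and 0.0185. Between the libraries Npat, the coactivator of histone gene transcription, was at 0.299 and 0.194 in stroma and called lower, as were Eri1, at 0.365 and 0.229, and Ccne2, at 0.16 and 0.0774, and 0 of 25 were called higher. These 3 of 25 lower calls are near the background of 11.1% of all genes. Of 23 histone chaperones 8 were higher in cycling stroma in each library, Asf1b (0.294 and 0.0324, and 0.32 and 0.0329), Chaf1b and Hjurp with the highest ratios. Of 40 DNA replication genes 38 and 37 were higher in cycling stroma, with medians of log2 1.22 and 1.09, which lie below the 2.81 and 2.10 of the histone members. In granulosa 21 of the 40 were higher in each library, against 1.63% and 2.43% of all genes. In germ cells 1 of the 40 was higher in each library, near the background of 2.77% and 2.74%.

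Over the 12 combinations of gate, state and library, the genes with levels most like the summed histone level were Depdc1a (Pearson r 0.994), Top2a (0.994), Prr11 (0.994), E2f7 (0.993) and Aspm (0.993), of 11930 ranked. The 12 points share libraries, and cycling stroma alone sets the order of size. Top2a was also used to define the state.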

How the data were processed

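The deposited values were UMI counts per gene and cell, from 2 libraries of mouse ovary on the 10x 3′ assay. The submitters' processing notes name Cell Ranger, Seurat 4.2.0 and mm9, and the authors deposited counts as whole numbers. The version of Cell Ranger and the annotation are not given in the sources used here, so coordinates come only from RefSeq.

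Barcodes were kept from 500 genes upwards and up to 20% mitochondrial UMIs (5199 of 5277 and 4819 of 4819), holding 80657690 and 117355739 UMIs. No doublet caller was run, and cells past more than 1 gate were left out. In no gate were 1099 and 1369 cells. Levels are pooled UMIs per 10000 with exact 95% Poisson intervals, shares have Clopper-Pearson intervals, and a side at 0 was given a floor of 3 counts. The call needed 10 UMIs over both sides, a 1.5-fold ratio and intervals apart. With 1 library per group no p-value was computed. Shares were also read after thinning cells to 2000 UMIs. The code was tested on simulated data. Software was matplotlib 3.10.9, pandas 2.3.3, numpy 2.4.6, scipy 1.17.1 and Python 3.11.15.

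The members and gene lists were chosen with earlier results of these data known. Members named are the 8 with the highest level, the 5 highest and 5 lowest library ratios per gate and the 5 highest cycling ratios per gate (at least 20 UMIs), and the lists of polyadenylated and germ-line members; others were chosen after their values were seen. Of other lists the 3 highest and lowest ratios could be named. The mitosis split and the check markers were chosen after the data were seen. Alternatives were other cell weights, depth floors, gates, scalings, cycling definitions, UMI minimums and folds.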

Additional observations from a re-analysis of the deposited data

Results flagged for a closer look

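Hist1h2bc, an H2B gene with polyadenylated mRNA, had opposite directions in different gates of the library labelled MLT. Its log2 ratio of cycling over non-cycling cells was −0.77 in germ cells and 0.81 in stroma. The difference was not tested, and the non-cycling germ level rests on 36 UMIs. In the library labelled DEHP_MLT the ratios were −0.13 and 0.61.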

How the results depend on the processing

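Of 172 alternative values, 108 stayed within the spread set for them, 59 moved and 5 changed sign. No paired analysis was possible because each group is 1 library. Values are log2, and where both libraries are given the one labelled MLT comes first. Leaving out Hist1h2ap changed the cycling ratio to −0.0133 and 0.131 in germ cells, 0.315 and 0.357 in granulosa and 2.83 and 2.03 in stroma, the non-cycling germ over stroma ratio to 0.284 and 0.114, and the library ratio to −0.258, −0.334 and −0.90 in germ, granulosa and stroma. Equal weight per cell gave 2.81 and 2.86 for cycling stroma, and 0.162 in germ and −0.16 in stroma between libraries. A common UMI floor gave 3.18 for cycling stroma labelled MLT and −0.305 for stroma between libraries. It kept 24 of 116 non-cycling germ cells labelled MLT, below the minimum of 50 cells. The germ cycling and the non-cycling germ over stroma ratios labelled MLT therefore could not be checked at that floor. A doubled gate cut gave 0.597 and 1.0 for cycling granulosa, 2.92 for cycling stroma labelled DEHP_MLT and −0.291 for stroma between libraries. A halved one gave 0.612 and 1.05 for cycling granulosa, and labelled DEHP_MLT 0.371 for cycling germ cells and 0.63 for non-cycling germ over stroma, with 0.148 for granulosa between libraries. Requiring both Mki67 and Top2a gave 0.945 and 1.29 in granulosa, 3.95 and 3.52 in stroma and 0.226 in germ cells labelled DEHP_MLT. Thinning first gave 1.02 in granulosa labelled MLT, 3.83 and 3.20 in stroma and 0.378 in germ cells labelled DEHP_MLT. Scaling without mitochondrial, ribosomal protein and haemoglobin genes gave 3.09 and 2.91 for cycling stroma, 0.305 for non-cycling granulosa over stroma labelled MLT, and 0.332, 0.175 and −0.157 between libraries. The median ratio gave 0.39, 0.155 and −0.0839 there. Leaving out cells with endothelial, immune or erythroid markers left 0 cells labelled DEHP_MLT, so no library ratio could be had. Labelled MLT it gave 0.669 for cycling granulosa, 2.92 for cycling stroma and 0.56 for non-cycling granulosa over stroma. Chosen after the data were seen, leaving out cells with endothelial or immune markers gave 0.256 for cycling germ and 0.352 for cycling granulosa labelled MLT, and 0.118 and 0.0879 between libraries in germ and granulosa. Leaving out cells with MHC class II UMIs, likewise, kept 71 of 271 germ, 98 of 676 granulosa and 808 of 2965 stroma cells labelled MLT. It gave 2.73 for cycling stroma labelled MLT, 0.442 for cycling granulosa labelled DEHP_MLT, and 0.188, −0.0262 and 0.067 between libraries. For counts of members, a 2-fold limit left 0 lower in cycling germ labelled MLT (2 with no UMI minimum), 1 higher in cycling germ labelled DEHP_MLT, and between libraries 1 higher in germ, 3 lower in granulosa and 2 higher in stroma. Of the 25 members lower in stroma between libraries 18 stayed at 2-fold. A minimum of 50 UMIs left 5 higher in cycling granulosa labelled DEHP_MLT and 2 higher in granulosa between libraries. The share of all genes called at these limits is not given here, so these counts have no background beside them. The cause of these changes was not tested beyond what each setting removes. Members with few UMIs are limited by depth.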
